A study of Mus musculus with 5 samples.

Results

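The 10 genes described here supply and use glutathione: Gclc, Gclm, Gss, Gsr, Gpx1, Gpx4, Gstp1, Gstm1, Mgst1 and Slc7a11. They were taken by symbol, through the gene identifiers, from the 29267 genes of the deposited tables. All 10 were found, and all 10 passed the filter on low values (a mean of at least 1 CPM, counts for each 1000000 scaled reads, over the libraries of a day). RNA was sequenced from mouse embryonic fibroblasts (MEF) of the ICR strain during reprogramming, the conversion of somatic cells towards a pluripotent state. There were 5 libraries of 1 group each. The day-4 libraries came from cells expressing Flag, the control, or CypD, cyclophilin D, which is the product of Ppif. At day 8 the cells had been left without treatment (control), or had received either mastoparan, a peptide of wasp venom, or the redox-cycling herbicide paraquat. The genotype label of the 3 day-8 libraries also names CypD, which the study's design text does not. How the cells were reprogrammed, and whether cells of several embryos were pooled, is not given in the sources used here.

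Glutathione is a tripeptide that holds most of a cell's low-molecular-weight thiol. The transporter subunit encoded by Slc7a11 brings in cystine, glutamate-cysteine ligase (catalytic subunit Gclc, modifier subunit Gclm) joins cysteine to glutamate, and glutathione synthetase (Gss) adds glycine. Peroxidases such as Gpx1 and Gpx4 oxidize glutathione while they reduce peroxides, glutathione reductase (Gsr) restores it with NADPH, and transferases such as Gstp1, Gstm1 and the membrane-bound Mgst1 couple it to electrophiles. Several of these genes are known targets of the transcription factor Nrf2, which acts through antioxidant response elements.

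Gpx1 and Gpx4 are selenoproteins, and their messages are read through a TGA codon at which selenocysteine is inserted. The coding sequence around that codon is shown because it sets these peroxidases apart from the other 8 genes and ties them to the selenocysteine machinery described further on. In GRCm38 the Gpx1 codon is codon 47, in exon 1 of 2, at chr9:108339451-108339453. The Gpx4 codon is codon 73 of 197 in the transcript used here, in exon 3 of 7, at chr10:80054737-80054739. Both are on the plus strand, and capitals mark the selenocysteine codon.
Gpx1: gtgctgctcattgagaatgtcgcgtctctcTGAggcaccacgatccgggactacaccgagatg
Gpx4: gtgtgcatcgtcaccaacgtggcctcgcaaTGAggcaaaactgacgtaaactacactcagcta

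Gstp1 has a near-identical neighbour, Gstp2, and the pair is shown because it limits how the Gstp1 counts can be read. The 2 coding sequences of 630 bases differed at 12 positions (98.1% identity), and the longest stretch without a difference was 300 bases. Of the 773 different 49-base stretches in Gstp1 transcripts, 483 (62.5%) also occurred in Gstp2. The first 120 coding bases hold 6 of the differing positions, marked in capitals.
Gstp1: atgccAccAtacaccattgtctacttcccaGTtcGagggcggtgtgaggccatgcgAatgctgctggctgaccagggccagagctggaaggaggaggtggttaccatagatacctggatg
Gstp2: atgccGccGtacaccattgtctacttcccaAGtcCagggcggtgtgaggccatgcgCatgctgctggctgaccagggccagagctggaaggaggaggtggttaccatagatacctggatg
Gstp2 itself was listed with 12 counts in the Flag library, 7 in CypD, 22 in control, 20 in mastoparan and 15 in paraquat, against 526 to 1046 for Gstp1. Reads that fit both genes could have been given to either, so the Gstp1 values may include Gstp2. Fewer shared stretches were found for Gss (10.4%, with the neighbour Acss2 and the antisense genes Gssos1 and Gssos2), Gstm1 (9.65%, mostly with Gstm3, which had 0 counts in all 5 libraries), Gclm (4.42%) and Slc7a11 (1.44%). None was found for Gclc, Gsr, Gpx1, Gpx4 or Mgst1.

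RefSeq promoter windows of GRCm38.p6, from 250 bases before to 50 bases from the start site, were at hand for 8 of the 10 genes, 13 windows in all. Gclc and Gsr had no window and were not searched. They were searched on both strands for the core of the antioxidant response element, TGACNNNGC, and for that of the CCAAT/enhancer and ATF composite element of amino acid response genes, TGATGNAA. The first occurred in 1 window each of Gclm and Mgst1 and the second in Slc7a11, at 2 places, while 12.4% and 3.97% of all 32851 promoter windows held them. The 160 bases before the start site are shown for Gclm and Slc7a11, as the pair of supply genes that hold a match, with the matches in capitals.
Gclm: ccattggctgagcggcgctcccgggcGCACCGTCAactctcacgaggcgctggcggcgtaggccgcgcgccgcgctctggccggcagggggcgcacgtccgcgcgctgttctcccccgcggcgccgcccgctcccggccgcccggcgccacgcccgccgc
Slc7a11: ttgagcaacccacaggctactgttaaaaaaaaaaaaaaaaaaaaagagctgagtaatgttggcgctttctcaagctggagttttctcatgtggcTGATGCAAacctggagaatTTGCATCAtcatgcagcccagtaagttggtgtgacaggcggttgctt
The Gclm stretch is chr3:122245397-122245556 on the plus strand, and its match, on the opposite strand, begins 134 bases before the start site. The Slc7a11 stretch is chr3:50443614-50443773 on the minus strand, and its matches begin 66 and 47 bases before the start site. These are matches of letters and not measured binding sites.

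The libraries held between 2426015 and 3426702 expected counts. With 1 library per group no difference between conditions could be tested, and no p-value is given. The 95% intervals below cover counting error only and not variation between cultures. Amplified reads can repeat 1 molecule, so the intervals may be too narrow even for counting error. Ppif was listed at 112 counts in the Flag library and 2629 in the CypD library. It was at 90, 95 and 79 counts in the control, mastoparan and paraquat libraries, which is below the Flag library and far from the CypD library, although the label names CypD. The fibroblast label was checked with 12 markers, whose summed level was 7229 to 7458 CPM in the 5 libraries, and none of the 12 was at 0. Vim alone gave 3406 to 3864 CPM of this, and the sum does not show how single markers differed. Dcn, for one, was at 48.9 and 54.2 CPM at day 4 and 13.0 to 26.7 at day 8, while Thy1 was at 33.9 and 47.8 against 60.4 to 77.1. Summed levels were 48.5 to 60.7 CPM for 5 endothelial markers, nearly all of it Tek, with Cdh5 and Emcn at 0 in every library, and at most 1.05 for 5 erythroid markers. Sums of 3 marker lists were higher in every day-8 library than at day 4. They were 232 and 218 CPM at day 4 and 693 to 796 at day 8 for 8 epithelial markers. For 7 macrophage markers they were 7.89 and 10.1 against 17.5 to 21.7, with Adgre1 at 0 in every library. For 8 pluripotency markers they were 5.13 and 3.76 against 7.80 to 10.4, with Dppa4 and Dppa3 at 0 in every library.

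Compared per transcript length, as the deposited TPM (transcripts for each 1000000 transcripts), the 10 genes ranged from 1.18 to 1314. Both peroxidases stood at the top in all 5 libraries. Gpx1, which reduces hydrogen peroxide in the cytosol and mitochondria, had a TPM of 1020 in Flag, 1061 in CypD, 1023 in control, 1040 in mastoparan and 1106 in paraquat. Gpx4, which reduces lipid hydroperoxides in membranes, had 834, 910, 1103, 1091 and 1314 in the same order. Gpx1 was above Gpx4 in both day-4 libraries and below it in the paraquat library, with counting intervals that did not overlap. In the control and mastoparan libraries the intervals of the pair overlapped.

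The transferases came next, and their order also differed between days. Gstp1, a cytosolic transferase of the pi class, had a TPM of 438, 476, 587, 590 and 754. Mgst1, a microsomal transferase with peroxidase activity, had 556, 532, 412, 433 and 361. Mgst1 was thus above Gstp1 at day 4, with overlapping intervals in the CypD library, and below it in all 3 day-8 libraries. Gstm1, of the mu class, was lower than both, at 93.1, 102, 170, 164 and 174.

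Genes of synthesis and recycling were lower still. In TPM, Gss was at 55.1, 63.3, 78.5, 71.3 and 72.0. Gsr was at 54.1, 57.3, 44.5, 45.4 and 38.3, and Gclm was at 48.7, 47.4, 44.0, 41.3 and 38.1. At day 4 the intervals of Gss and Gsr overlapped, as did those of Gsr and Gclm, whereas at day 8 Gss stood above the other 2. Gclc was at 18.5, 16.4, 8.57, 7.36 and 6.81, below Gclm in every library. Slc7a11 was the lowest of the 10 in every library, at 1.37, 1.18, 2.42, 2.19 and 1.27.

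**Figure D1:**
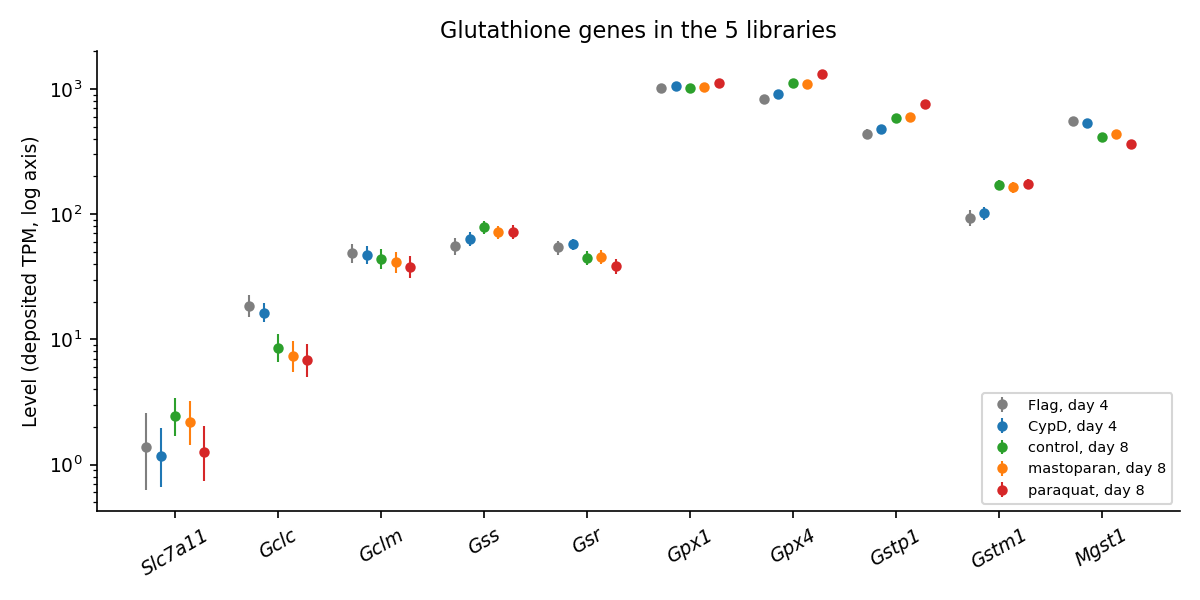
Level of each of the 10 glutathione genes in the 5 libraries, as deposited TPM on a log axis; points are single libraries and bars are 95% counting intervals. Gpx1 and Gpx4 lie between 834 and 1314 TPM throughout, Slc7a11 lies between 1.18 and 2.42, and Gclc and Gstm1 show the clearest steps between the day-4 and day-8 libraries.

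Day 8 was compared with day 4 as a description of the 2 day-4 and 3 day-8 libraries. The libraries of 1 day differ in construct or treatment and are not replicates, and construct and treatment cannot be told apart from the day. Values were CPM after TMM scaling (trimmed mean of M-values, which evens out library composition). In bulk RNA, fewer cells of a type and less RNA per cell cannot be told apart either. For 9 of the 10 genes the day-8 libraries lay wholly above or wholly below both day-4 libraries, 6 above and 3 below. Of 13584 genes tested, 56.6% showed such separation, 28.5% above and 28.1% below. A stricter count asked for at least 1.5-fold between the nearest libraries of the 2 days, which 9.45% of genes passed upwards and 3.98% downwards. It was met upwards by Gstm1 and Slc7a11 and downwards by Gclc.

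Gclc (chr9:77754535-77794485, plus strand) encodes the catalytic subunit that carries the rate-limiting step of synthesis. Its level was 41.8 CPM in Flag and 38.2 in CypD, and 20.1 in control, 17.9 in mastoparan and 19.5 in paraquat. All 3 day-8 libraries were low, and the lowest day-4 library was 1.90 times the highest day-8 library. Gclm (chr3:122245557-122270732, plus strand), its modifier partner, was at 52.5, 44.6, 38.3, 36.1 and 44.6 CPM. The days overlapped only because the paraquat and CypD libraries were all but equal. With library totals alone, in TPM, and with the length trend or length and GC trends removed, Gclm was lower in every day-8 library. The subunit ratio in TPM, Gclm over Gclc, was 2.63 (95% counting interval 2.02 to 3.43) in Flag and 2.90 (2.28 to 3.69) in CypD. It was 5.13 (3.74 to 7.09) in control, 5.61 (3.97 to 8.01) in mastoparan and 5.59 (3.90 to 8.12) in paraquat. The modifier message was in excess in every library. In TPM no day-4 interval overlapped a day-8 interval, though those of CypD (up to 3.69) and control (from 3.74) nearly touched. These intervals take the step from counts to TPM as exact, so separation on the scale of counts is not shown. Counts at day 4 were 133 and 154 for Gclm against 106 and 132 for Gclc. At day 8 they were 118, 103 and 103 against 62, 51 and 45.

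Gss (chr2:155563181-155592810, minus strand), the next enzyme of synthesis, was on the opposite side from Gclc. It was at 67.9 and 78.2 CPM at day 4 and at 98.3, 90.5 and 104 in control, mastoparan and paraquat, a gap of 1.16-fold between the nearest libraries. Gsr (chr8:33652523-33698163, plus strand), which regenerates reduced glutathione, was at 95.1 and 104 CPM at day 4 and at 81.1, 86.0 and 85.3 at day 8. Its lowest day-4 library was 1.11 times its highest day-8 library, which is close to touching.

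Slc7a11 (chr3:49892526-50443614, minus strand) rested on few reads, with 9 counts in Flag, 15 in CypD, 34 in control, 26 in mastoparan and 17 in paraquat. In CPM these were 3.55, 4.34, 11, 9.12 and 7.36, so every day-8 library was above day 4, by 1.70-fold at the nearest. The paraquat library lay between day 4 and the other 2 day-8 libraries, and on the TPM scale it overlapped day 4. The interval in the CypD library was 2.43 to 7.16 CPM and in the paraquat library 4.29 to 11.8, so these 2 were not separated by counting error.

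Among the peroxidases, Gpx4 (chr10:80047166-80056439, plus strand) was at 458 and 518 CPM at day 4 and at 605, 651 and 938 at day 8, 1.17-fold apart at the nearest libraries. Gpx1 (chr9:108338903-108340343, plus strand) was at 502, 539, 544, 589 and 744 CPM. Its control library was within 1.01-fold of its CypD library, and on the TPM scale the days overlapped. The direction for Gpx1 therefore depended on the scale.

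The 3 transferases did not share a direction. Gstm1 (chr3:108012255-108017973, minus strand) was at 77.3 and 85.1 CPM at day 4 and at 147, 146 and 183 at day 8, with a gap of 1.72-fold. Gstp1 (chr19:4035407-4037985, minus strand) was at 208, 234, 289, 301 and 453 CPM, with a gap of 1.24-fold. Mgst1 (chr6:138140316-138156755, plus strand) was lower at day 8, at 220, 228 and 240 CPM against 277 and 282 at day 4. Its lowest day-4 library was 1.16 times its highest day-8 library.

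The transferases outside the 10 genes were mostly on the side of Gstp1 and Gstm1. Of 17 other cytosolic transferases measured, 14 were higher in all day-8 libraries and 1, Gstcd, was lower in all of them, by 1.02-fold at the nearest, against the 28.5% and 28.1% of all genes. Among the 14, Gsta1 had 3 and 1 counts at day 4 (1.18 and 0.290 CPM) and passed the filter through day 8, which favoured this direction. Gstp2, with 12 and 7 counts at day 4, was also among the 14, and its reads could have been given to Gstp1. With 1 library left out at a time, 14 to 16 of the 17 were higher, where 31.8% to 36.1% of all genes were. On a fixed scale that count could not fall, because leaving out a library cannot undo a separation. The number higher was 12 in deposited TPM, where 20.3% of all genes were higher. It was also 12 with the length trend described below removed, where 29.1% were. Gsta4, of the alpha class, which acts on the lipid peroxidation product 4-hydroxynonenal, was at 180 and 197 CPM at day 4 and 476 to 648 at day 8. Gsto1, of the omega class, was at 514 and 532 CPM against 852 to 1007. Gstt2 and Gstt3, of the theta class, had gaps of 2.72-fold and 1.68-fold, and Gstm4, of the mu class like Gstm1, had one of 2.57-fold. The microsomal genes Mgst2, Mgst3 and Ptges were all higher at day 8, unlike Mgst1. All 7 epithelial markers measured were also higher in every day-8 library, each by at least 1.5-fold. The 3 macrophage markers measured were higher too, 2 of them by 1.5-fold, as was 1 of 2 pluripotency markers. Cldn4, Csf1r and Zfp42 were under 1 CPM in both day-4 libraries and passed the filter through day 8, so it favoured this direction for them. Of the 12 fibroblast markers, 4 were higher and 5 lower, 3 and 5 in TPM, and 5 and 4 with the length trend removed. The part of these markers in the differences was not tested.

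**Figure D2:**
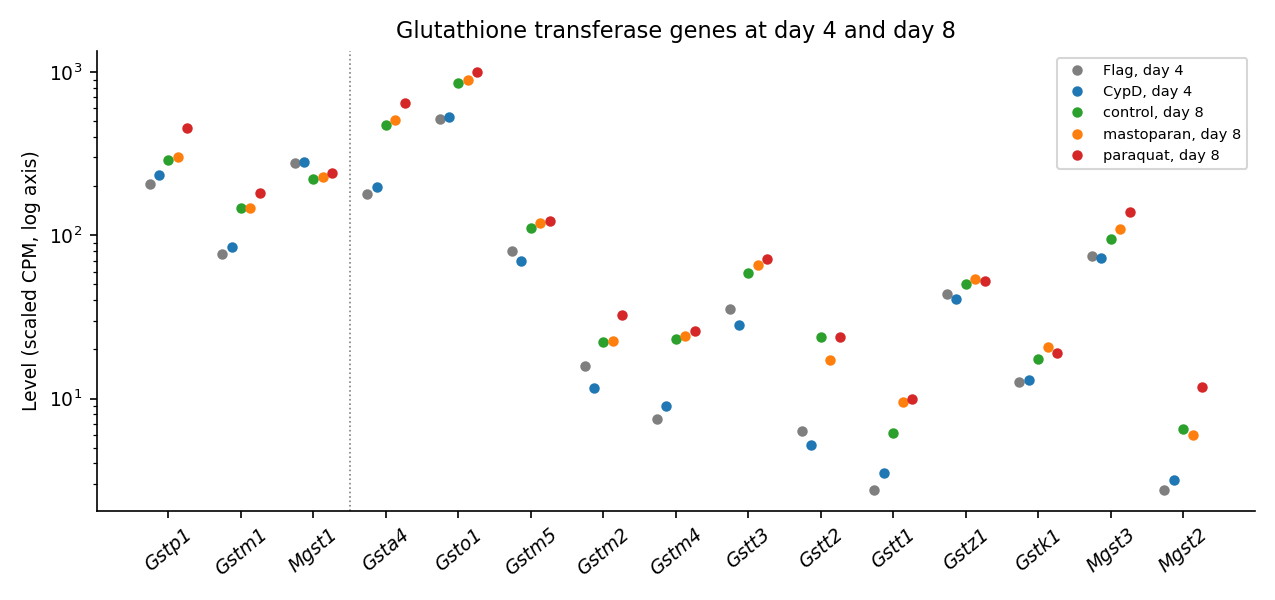
Scaled CPM on a log axis for 15 glutathione transferase genes, Gstp1, Gstm1 and Mgst1 on the left of the dotted line and 12 related genes on the right; each point is 1 library. Day-8 points lie above day-4 points for every gene drawn but Mgst1, whose day-8 libraries are at 220 to 240 CPM against 277 and 282. The 12 related genes are a part of those measured. Gstcd, which was lower at day 8, and Gstm6 and Gsto2, which overlapped between days, are not drawn.

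Other parts of the pathway were divided, and their counts are to be read against the 28.5% of all genes that were higher and 28.1% that were lower. With 1 library left out these shares were 31.8% to 36.1% and 32.2% to 36.4%, and in TPM 20.3% and 32.6%. The plasma peroxidase gene Gpx3 was at 16.8 and 20.9 CPM at day 4 and 34.4 to 45.9 at day 8. Among 8 glutaredoxin and glyoxalase genes, whose products use glutathione as a cofactor, 6 were higher at day 8 and 0 lower, none by 1.5-fold at the nearest libraries. In TPM, and with the length trend removed, 5 were higher and 2 lower, and without the paraquat library 6 and 2. Of 8 genes of methionine, transsulfuration and cysteine metabolism, 3 were higher and 3 lower. The higher ones included Cth, which releases cysteine from cystathionine, at 95.5 and 101 CPM against 136 to 170. The lower ones included Mat2a, which makes S-adenosylmethionine, at 269 and 287 CPM against 118 to 136, and Ahcy, at 151 and 158 against 92.8 to 106. Of 9 NADPH genes, 2 were higher and 4 lower, among them Pgd of the pentose phosphate pathway, at 339 CPM in both day-4 libraries against 236 to 260. Of 7 transport genes, 3 were higher and 2 lower. Slc3a2, the heavy chain that pairs with Slc7a11, was at 224 and 230 CPM against 237 to 271, while the mitochondrial carrier Slc25a10 was at 64.6 and 77.7 against 37.3 to 39.3. Of 8 breakdown genes, 5 were higher and 0 lower, but 5 and 3 without the CypD library, 5 and 2 without the mastoparan library, and 2 and 0 in TPM. Among them was Ggct, at 12.2 and 14.6 CPM against 21.1 to 25.6.

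Nrf2 itself (Nfe2l2) overlapped between days, at 95 and 98.3 CPM at day 4 and 91.8 to 113 at day 8. Its inhibitor Keap1 overlapped as well. Of the 12 regulators and reference targets, 3 were higher and 3 lower, which is close to the shares of all genes. The numbers were 3 and 6 without the control library, 3 and 5 without the CypD library, and 5 and 3 without the paraquat library. The reference target Nqo1 was at 27.8 and 28.4 CPM against 35.7 to 39.9, whereas Txnrd1, thioredoxin reductase, was at 205 CPM in both day-4 libraries against 86.6 to 109. Gclc and Txnrd1 were thus both lower at day 8 while Nqo1 was higher, and Hmox1 and Srxn1 overlapped.

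CypD was compared with Flag at day 4 to ask how a raised level of cyclophilin D changes expression. None of the 10 genes reached 1.5-fold in either direction, where 6.01% of 13244 genes were higher and 6.83% lower by that much. The median log2 ratio of the 10 was 0.13, and that of all genes was -0.02. With the length trend described below removed it was 0.07, and the shortest 10% of all genes had a median of 0.10. Gpx4 was 1.13-fold higher (1.05 to 1.22) and Gstp1 1.13-fold higher (1.01 to 1.26). They were the only members whose interval left out 1, which 8.32% of all genes did. Gclc was at 0.914-fold (0.702 to 1.19), Gclm at 0.850-fold (0.669 to 1.08), Gss at 1.15-fold (0.948 to 1.40) and Gsr at 1.10-fold (0.929 to 1.30). Gpx1 was at 1.07-fold (0.998 to 1.15), Gstm1 at 1.10-fold (0.916 to 1.33) and Mgst1 at 1.02-fold (0.921 to 1.12). For these 7 genes the whole interval lay within 1.5-fold of no difference. Slc7a11, at 1.22-fold (0.501 to 3.17), was far less precise.

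Mastoparan was compared with the untreated day-8 control. Again 0 of the 10 genes reached 1.5-fold, against 6.23% of 13651 genes higher and 7.04% lower. The median log2 ratio was 0.02, and that of all genes 0.01. Gpx1 was 1.08-fold higher (1.01 to 1.16) and Gpx4 1.08-fold higher (1.01 to 1.15), both small, and 7.27% of all genes had an interval that left out 1. In deposited TPM Gpx1 was at 1.02-fold and Gpx4 at 0.989-fold, so the direction for Gpx4 depended on the scale. With the length trend described below removed, their log2 ratios were 0.07 and 0.06 in place of 0.12 and 0.11. The intervals of the other 8 held 1. Mgst1 was at 1.03-fold (0.927 to 1.15), Gstm1 at 0.996-fold (0.870 to 1.14) and Gstp1 at 1.04-fold (0.949 to 1.15). These narrow counting intervals lay within 1.5-fold of no difference, which holds for these 2 libraries and not for the conditions. Gclc, at 0.890-fold (0.602 to 1.31), and Slc7a11, at 0.827-fold (0.477 to 1.42), had wide ones.

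Paraquat was compared with the same control. Gpx4 was at 605 CPM in control and 938 in paraquat, 1.55-fold higher (1.46 to 1.65). Gstp1 was at 289 and 453 CPM, 1.57-fold higher (1.43 to 1.72). These 2 of the 10 genes passed 1.5-fold upwards, where 9.24% of all genes did, and 0 passed downwards, where 10.6% did. Gpx1 was 1.37-fold higher (1.28 to 1.47) and Gstm1 1.24-fold higher (1.09 to 1.42), and 11.2% of all genes had an interval above 1. The intervals of the synthesis and recycling genes held 1: Gclc was at 0.970-fold (0.645 to 1.45), Gclm at 1.17-fold (0.886 to 1.53), Gss at 1.06-fold (0.893 to 1.26) and Gsr at 1.05-fold (0.869 to 1.27). Mgst1 was at 1.09-fold (0.971 to 1.22). Slc7a11 was at 0.668-fold (0.350 to 1.23), the lowest of the 10. The median log2 ratio was 0.17 for the 10 genes and -0.03 for all genes.

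The paraquat library differed from the control along transcript length over all genes, and 3 of the 4 genes with intervals above 1 are among the shortest. The median log2 ratio was 0.40 in the shortest 10% of genes and -0.20 in the longest 10%, against 0.07 and -0.04 for mastoparan over control. Gstp1 (757 bases), Mgst1 (807), Gpx1 (811) and Gpx4 (869) all belong to the shortest 10%, in which 28.0% of genes were at least 1.5-fold higher. Gstm1, with 1282 bases, lies outside it. Once the median of genes of like length was subtracted, the log2 ratio of Gpx4 was 0.27, of Gstp1 0.19, of Gstm1 0.10 and of Gpx1 0.09. That of Mgst1 was -0.24 and that of Slc7a11 -0.39, so Mgst1 changed sign. Gclc changed sign too, from -0.04 to 0.12. Then 0 of the 10 passed 1.5-fold, where 6.56% of all genes were higher and 8.5% lower. In deposited TPM, Gpx4 was 1.19-fold, Gstp1 1.28-fold, Gpx1 1.08-fold and Slc7a11 0.525-fold of control, and the median of the 10 was -0.16 where that of all genes was -0.28. On that scale Gclc was at 0.795-fold, Gclm at 0.866-fold, Gss at 0.917-fold and Gsr at 0.862-fold. The direction for Gclm, Gss and Gsr thus depended on the scale. What gives the length trend was not tested. Of the 12 fibroblast markers, 6 had an interval below 1 with paraquat and 2 above it, where 9.77% and 11.2% of all genes did, and of 7 epithelial markers measured 2 were above and 0 below. The median log2 ratio of the fibroblast markers was -0.18, and -0.02 with the length trend removed. That of the epithelial markers was 0.24, and 0.03 with the trend removed. The part of these markers in the values of the 10 genes was not tested.

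**Figure D3:**
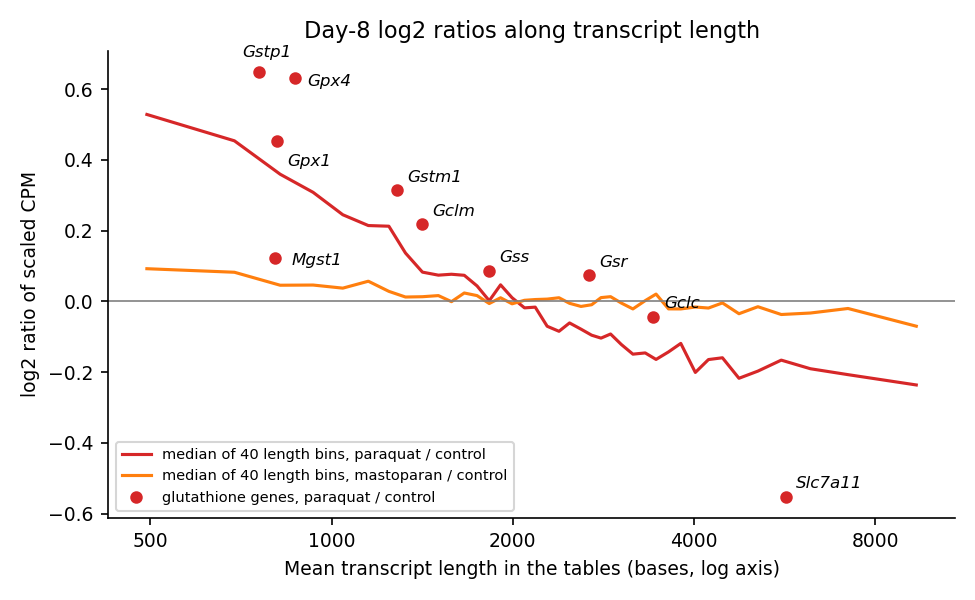
Log2 ratio of scaled CPM against mean transcript length on a log axis; lines are medians of 40 length bins over all genes for paraquat and mastoparan against control, and points are the 10 glutathione genes for paraquat. The paraquat line falls from short to long transcripts, with Gpx4 and Gstp1 above it and Mgst1 and Slc7a11 below it.

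Mastoparan and paraquat were also compared directly. Gstp1 was 1.503 times lower with mastoparan (1.37 to 1.65), the only 1 of the 10 past 1.5-fold downwards, where 8.78% of genes were; none passed upwards, where 10.7% were. Gpx4 was 1.44 times lower (1.35 to 1.54), Gpx1 1.26 times lower (1.18 to 1.35) and Gstm1 1.25 times lower (1.09 to 1.43), and 10.3% of all genes had an interval below 1. The 3 day-8 comparisons share libraries and are not independent of each other. After the length trend was removed the log2 ratios were -0.22 for Gstp1, -0.23 for Gpx4, -0.04 for Gpx1 and -0.16 for Gstm1, and Mgst1 was at 0.22.

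**Figure D4:**
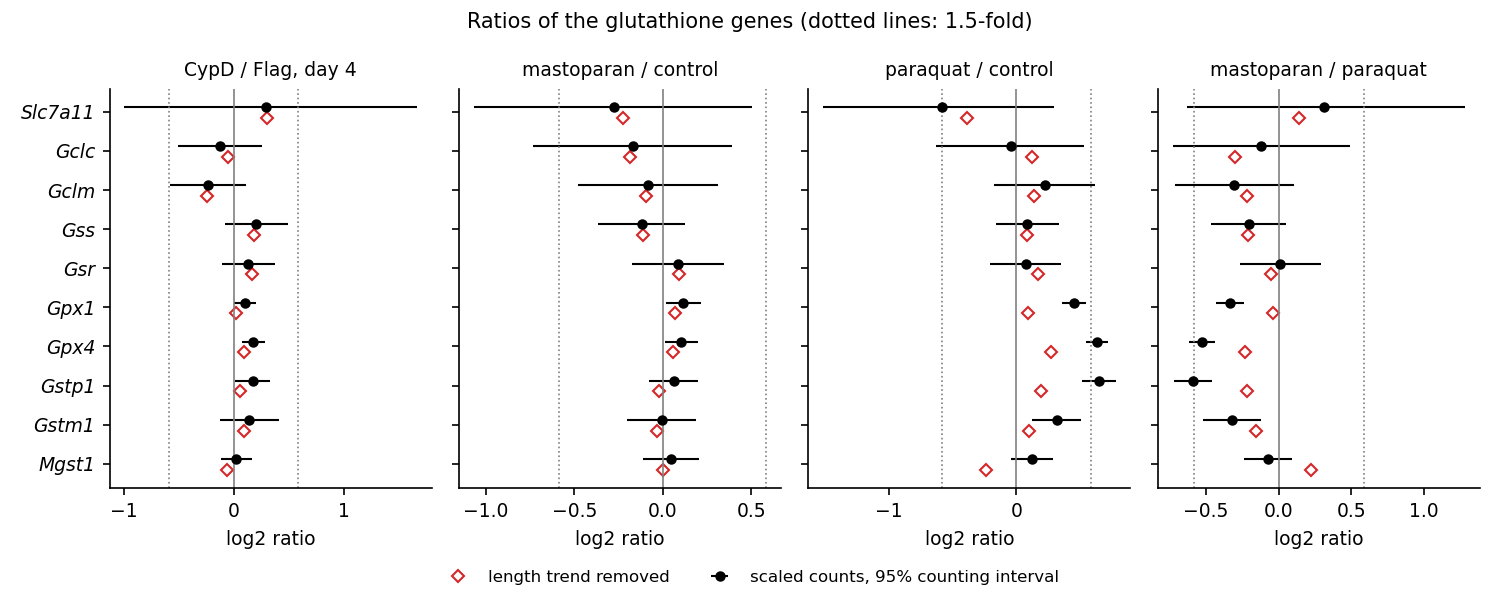
Log2 ratios of the 10 glutathione genes in the 4 comparisons; black points are ratios of scaled counts with 95% counting intervals, red diamonds the ratios after the length trend was removed, and dotted lines 1.5-fold. The points lie near 0 for CypD and mastoparan, while for paraquat Gpx4, Gstp1, Gpx1 and Gstm1 lie to the right and their diamonds nearer to 0.

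Related genes in the paraquat comparison are given with their length-corrected values. Among 4 other peroxidases measured, 0 passed 1.5-fold; Gpx8, of the endoplasmic reticulum, was 1.48-fold higher (1.14 to 1.92; log2 0.31 with the length trend removed). Of 17 cytosolic transferases 2 passed upwards and 0 downwards, where 9.24% and 10.6% of all genes did. With the length trend removed 0 of the 17 passed, and their median log2 ratio was 0.01 in place of 0.17. Gsta4 was 1.36-fold higher (1.27 to 1.46; 0.14) and Gstm2 1.47-fold higher (1.05 to 2.08; 0.30). The microsomal Mgst3 was 1.47-fold higher (1.25 to 1.72; 0.31). Of 8 glutaredoxin and glyoxalase genes 6 had intervals above 1 and 0 below, where 11.2% and 9.77% of all genes did. Their median log2 ratio was 0.21, and 0.07 with the length trend removed. Among them was Glrx5, the mitochondrial glutaredoxin of iron-sulfur assembly, at 1.47-fold (1.27 to 1.71; 0.25). Each of these 5 log2 ratios was nearer to 0 with the length trend removed.

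The selenocysteine machinery did not move as 1 block. Of its 7 genes, 1 passed 1.5-fold upwards and 1 downwards with paraquat, close to the 9.24% and 10.6% of all genes. Pstk, the kinase that prepares the selenocysteine tRNA, was 1.56-fold higher (1.21 to 2.02; log2 0.33 with the length trend removed). Sephs2, which makes the selenium donor, was at 67 counts in control and 28 in paraquat, 1.79 times lower (1.14 to 2.89), and stood at -0.95 with the length trend removed. It was also 1.91-fold higher with mastoparan than with paraquat (1.21 to 3.09). Among the 12 ferroptosis genes, the ferritin chains Ftl1 and Fth1 were 1.39-fold (1.35 to 1.43; 0.16) and 1.38-fold (1.27 to 1.49; 0.10) higher with paraquat. The 12 as a list were not raised, with a median log2 ratio of 0.02, 7 above 0 and 5 below. An interval above 1 was found for 2 of them, where 11.2% of all genes had one. Past 1.5-fold there were 0 upwards and 1 downwards.

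Nrf2 regulators and targets were not higher as a group with paraquat. Of 12 genes, 0 had an interval above 1 and 3 had one below 1, where 11.2% and 9.77% of all genes did. By log2 ratio 3 were above 0 and 9 below. The list holds the inhibitor Keap1 beside targets, so these counts do not give a direction of Nrf2 activity. Mafk and Mafg, small Maf partners of Nrf2, were 1.47 times (1.11 to 1.96) and 1.30 times (1.04 to 1.64) lower. Hmox1 was at 0.768-fold (0.572 to 1.02) and Srxn1 at 0.716-fold (0.487 to 1.04). Nqo1 was at 35.7 CPM in control and 39.9 in paraquat (110 and 92 counts). In deposited TPM it was at 34.1 and 31.2, so its direction depended on the scale. The median log2 ratio of the 12 was -0.27, and -0.13 with the length trend removed.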

How the data were processed

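Per the labels' protocols, libraries were made from total RNA. Bowtie2 2.2.5 and the mm10 genome are named in the submitters' processing notes. Of the counting program and its annotation nothing is stated there or in the labels. The deposited tables list, per the file headers, transcript lengths and 3 values for each gene: expected count, TPM and FPKM. The deposited FPKM were not used for any result.

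Expected counts were rounded and scaled with TMM factors (edgeR 4.0.16, R 4.3.3), 0.951 for paraquat and 1.01 to 1.02 for the others. CPM are per 1000000 scaled counts. Log2 ratios took a pseudocount of 0.5 CPM, and genes averaging under 1 CPM in that day's libraries were left out. Folds are ratios of scaled counts without a pseudocount, with exact Clopper-Pearson 95% intervals. TPM intervals carry over the exact Poisson interval of the count. The length trend is the median of 40 length bins. Symbols and coordinates are from GENCODE M21 (GRCm38, the same assembly as mm10), which named 28756 of 29267 identifiers. Promoters are from RefSeq. Computation used Python 3.11.15, numpy 2.4.6, scipy 1.17.1, pandas 2.3.3 and matplotlib 3.10.9, and was tested on simulated data. DESeq2 1.42.0 size factors were an alternative.

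The members and the gene lists were chosen with earlier results of these data known. All 10 members are reported. Other genes are up to 4 per list with the largest log2 ratio in a comparison at a mean of at least 5 CPM, genes that share sequence with a member, and Nrf2 reference genes. Genes of these lists named between days, the markers at 0 and Ppif were chosen after their values were seen.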

Additional observations from a re-analysis of the deposited data

How the results depend on the processing

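Counts past 1.5-fold depended on the scale. For paraquat over control the count of 2 became 1 with library totals alone, with deposited TPM and with totals without the most abundant genes (each time Slc7a11, lower, with 0 higher), and 0 with the length trend, or length and GC trends, removed or at 2-fold. It was 4 by intervals that leave out 1, and the median log2 ratio was -0.16 in TPM. For mastoparan over paraquat the count of 1 became 0 with library totals alone, without the most abundant genes, with the length trend or both trends removed, with Gstp1 summed with its copy and at 2-fold, and 4 by the interval rule. In TPM it was still 1, but of another gene and direction: Slc7a11 was 1.72-fold higher and Gstp1 at 0.783-fold, and the median log2 ratio of the 10 was 0.05 in place of -0.25. By that rule CypD over Flag and mastoparan over control each had 2 in place of 0. With library totals alone the log2 ratios with paraquat were 0.53 for Gpx4 and 0.54 for Gstp1. The count of 9 genes separated by day was 8 in TPM, where Gclm was below and Gpx1 and Slc7a11 overlapped. It was 9 to 10 with each library left out in turn, an alternative added after seeing the data. On a fixed scale, leaving out a library cannot undo a separation, so that count could not fall and is no check. The share of all genes separated was then 64.0% to 72.5%, in place of 56.6%. With length and GC trends removed Gpx1 was below. Of 479 alternative log2 ratios of single genes, 445 stayed within the counting interval and 34 moved out of it. The sign differed from the reported one in 31, 0 of them of a gene past 1.5-fold in that comparison. Depth limits Slc7a11 (9 to 34 counts) and Gclc (45 to 132) most. No paired analysis was possible because each group has 1 library.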
